A study of Mus musculus with 2 samples.

Results

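The receptors described here belong to the gp130 family, the group of cytokine receptor chains that bind IL-6, IL-31 and related cytokines, and they were read in mouse bone marrow-derived macrophages (BMDMs) with and without IL-4. Il31ra was chosen from its signal after IL-4 on these same arrays, and the other 7 genes, Osmr, Il6ra, Il6st, Lifr, Il27ra, Il11ra1 and Csf3r, were chosen by family with those results known, so the values of these 8 genes are a description and no test is given. Through the RefSeq transcript accessions in the array files the 8 genes had 11 probes, out of 20656 genes named on the array in the same way. Every one of the 11 probes was printed in 1 spot, carried no outlier flag and was not saturated.

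One array was hybridised with RNA of untreated BMDMs and 1 with RNA of BMDMs given IL-4 for 18 h, and with a single array in each condition no difference here has a replicate check. Both cultures came from male 8-week-old mice with floxed Crif1 alleles (Crif1 f/f) on a C57BL/6 background, and the sources used here name no Cre for these animals. The cells were grown out of marrow with M-CSF, and the dose of IL-4 used for the arrays is not given in the sources used here. A BMDM culture is a bulk sample, so more cells of a type and more RNA per cell cannot be told apart.

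Receptors of this family are type I membrane proteins with an extracellular cytokine-binding module. The signalling chains among them, such as gp130, carry JAK kinases on their cytoplasmic tails. These kinases phosphorylate STAT3 and other STAT proteins when the chains are brought together. Most family cytokines signal through gp130, encoded by Il6st, paired with a private chain such as IL-6Rα, LIFR, OSMR or WSX-1 (Il27ra). IL-31 is an exception, since its receptor joins IL-31RA, the product of Il31ra, to OSMR without gp130, and the G-CSF receptor (Csf3r) pairs with itself. In macrophages these receptors are known for the response to IL-6 and IL-27, and IL-6 is known to enhance alternative activation by IL-4.

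Of these 8 genes, 3 passed 2-fold upward after IL-4, namely Il31ra, Il6st and Il27ra, and 0 passed it downward. A gene is called detected on an array where the scanner software set its spots well above background. Of the 19743 genes detected on an array, 2.86% (564) passed 2-fold upward and 4.47% (883) downward, and nothing is read from the members' count against these shares because the members were chosen with this contrast known. The balance of the 2 directions depends on the scaling, with 827 genes upward and 564 downward under median scaling, 803 and 533 under quantile normalization and 1011 and 454 under scaling on spike-in controls. Il6st was measured on both arrays, whereas Il31ra and Il27ra were detected on the IL-4 array only. Among all 32448 genes 2.57% had that detection pattern. This total, like the numbers of genes detected or measured, also counts array identifiers without a gene symbol, each as a gene. Il11ra1 was 1.73-fold higher, and Osmr, Il6ra, Lifr and Csf3r differed by less than 1.3-fold.

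The stretches of DNA upstream of 3 of these genes are shown because Il31ra and Il6st are neighbours on chromosome 13 that were both higher after IL-4, while Osmr encodes the chain with which IL-31RA forms a receptor. They are the 250 bases before an annotated transcript start in RefSeq, build GRCm38.p6, read 5′ to 3′ on the strand of the gene, and lie at chr13:112580663-112580912 on the minus strand for Il31ra, chr13:112463820-112464069 on the plus strand for Il6st and chr15:6874314-6874563 on the minus strand for Osmr. Capitals mark a match to a STAT motif.
Il31ra: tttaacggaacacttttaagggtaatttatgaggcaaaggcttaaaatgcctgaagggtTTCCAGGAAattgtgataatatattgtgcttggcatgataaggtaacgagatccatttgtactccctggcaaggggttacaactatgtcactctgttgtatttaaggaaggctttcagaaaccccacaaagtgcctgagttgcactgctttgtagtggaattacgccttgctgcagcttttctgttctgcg
Il6st: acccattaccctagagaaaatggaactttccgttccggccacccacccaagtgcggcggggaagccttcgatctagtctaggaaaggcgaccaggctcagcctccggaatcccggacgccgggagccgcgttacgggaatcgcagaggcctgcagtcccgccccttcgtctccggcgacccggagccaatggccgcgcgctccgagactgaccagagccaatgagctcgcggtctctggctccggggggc
Osmr: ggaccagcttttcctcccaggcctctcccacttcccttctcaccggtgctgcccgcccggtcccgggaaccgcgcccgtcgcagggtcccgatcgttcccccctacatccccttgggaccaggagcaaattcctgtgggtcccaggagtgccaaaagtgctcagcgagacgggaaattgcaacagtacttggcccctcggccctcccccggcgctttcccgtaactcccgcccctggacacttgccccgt

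The motifs searched were TTCNNNNGAA, the spacing that STAT6 prefers, and TTCNNNGAA, the spacing bound by most STAT proteins. Each reads the same on both strands, and the window for the search reached from 250 bases before to 50 bases after the start. The table held 9 such windows for 7 of the 8 genes and none for Il27ra. The Il31ra window held 1 TTCNNNGAA match, TTCCAGGAA, whose first base lies at position -191 from the transcript start, and none of the other 8 windows held either motif. Over all 32851 windows in the table, 8.30% held TTCNNNGAA and 6.95% held TTCNNNNGAA. The Il31ra window had the lowest GC content of the 9, at 44.7%, below the lower quartile of 45.7% over all windows, whereas the Il6st window had 68.3% and the Osmr window 66.0%. A match of letters is not evidence of binding, and no match in this window says nothing about sites elsewhere.

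Il31ra encodes the chain that binds IL-31, a cytokine of activated T helper type 2 cells best known for itch. Its brighter probe had a background-subtracted intensity of 5.84 without IL-4 and 164 with it, and the scanner software put the errors at 5.82 and 17.3. The untreated spot was not well above background and the IL-4 spot was. The pixels of this spot had a median of 71 and 260 before background subtraction, over a local background of 27 and 30. The lowest intensity that counted as well above background in untreated BMDMs was 29.2. Set against this floor, after scaling each array on its 75th percentile, Il31ra was 5.25-fold higher after IL-4, a log2 difference of 2.39. The untreated Il27ra spot, at 31.2, exceeded this floor yet was not well above background. The value for Il31ra is therefore a lower bound for this floor and background step only. Probes with 10 spots and a similar mean log2 signal over the 2 arrays gave a median SD of 0.37 for the log2 difference. This is called the spot SD below, and it leaves out any spread between cultures. For Il31ra that mean lies between a dim and a brighter signal, so the SD need not fit either.

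The other Il31ra probe, assigned to the same transcript, had intensities of 6.62 and 9.32 and was detected on neither array, so it gives no fold. The 2 probes therefore did not show the same change, and the rise of Il31ra rests on 1 spot per array. The reason for the disagreement was not tested, since no probe sequences were used here. With normexp, another background correction, the bound for the brighter probe was 1.46, and without the bound its plain log2 difference was 4.71. The size of the rise therefore depends on how the dim untreated signal is handled. The direction is no check in the settings with a bound, since they set a probe detected on the IL-4 array only against a floor. Without the bound the difference was also positive, from the scanner intensity and in the processed table. That is no check either, since Il31ra was chosen from its signal after IL-4. Both values also come from the same 2 arrays.

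OSMR is the second chain of the IL-31 receptor and also pairs with gp130 to bind oncostatin M. The Osmr probe read 1737 without IL-4 and 1952 with it, detected on both arrays. Its scaled log2 difference was 0.07 (spot SD 0.058), close to the median of -0.01 over the 17242 genes measured on both arrays. Thus the 2 chains of the IL-31 receptor did not move alike on these arrays, as Osmr was measured in both conditions and Il31ra in the IL-4 condition only. The ligand Il31 itself was detected on neither array, with intensities of 6.47 and 6.20.

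gp130, the shared signalling chain, had the largest difference among the 6 members measured on both arrays. The Il6st probe read 2413 without IL-4 and 6933 with it, and the software errors were 241 and 693. The signal was 2.68-fold higher after IL-4, a log2 difference of 1.42 with a spot SD of 0.053. Of the 17242 genes measured on both arrays, 0.928% had a larger difference. Il6st stayed at least 2-fold higher in each of the 12 alternative ways of processing, between 1.37 and 1.74 on the log2 scale. All of them rest on the same spot of each array. Several, such as the filters on dim probes, could not change a gene with a single probe detected on both arrays.

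**Figure D1:**
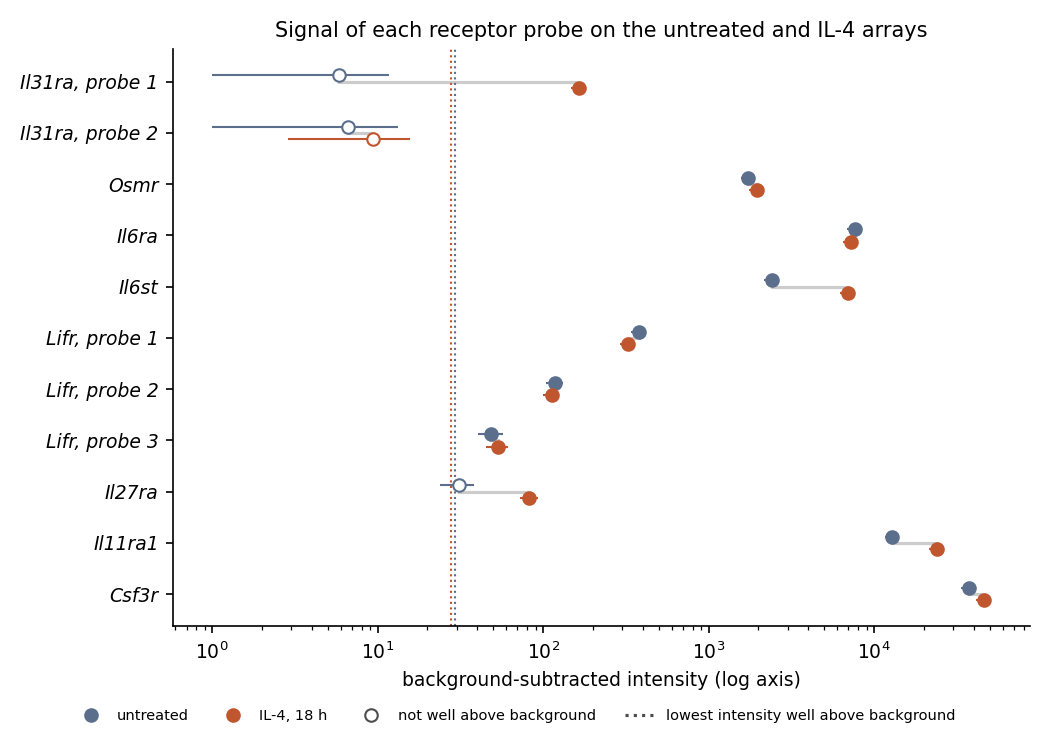
Background-subtracted intensity (log axis) of each of the 11 probes for the 8 receptor genes in untreated BMDMs (blue) and in BMDMs given IL-4 for 18 h (orange). Bars are the error estimated by the scanner software, drawn down to 1 at the lowest, open points were not well above background, dotted lines mark the lowest intensity that was, and levels of different probes are not comparable. The brighter Il31ra probe and the Il27ra probe go from an open to a filled point, and Il6st goes from 2413 to 6933.

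The private chains that pair with gp130 differed among themselves. Il27ra encodes WSX-1, which binds IL-27 together with gp130 and is known for restraining inflammatory macrophages. Its probe read 31.2 on the untreated array, not well above background, and 82.5 on the IL-4 array, well above it. The untreated signal exceeded the lowest intensity that counted as well above background there, 29.2, and was taken at its own value. The IL-4 signal was then 2.47-fold higher, which is a plain difference and not a lower bound. On the log2 scale it was 1.30, with a spot SD of 0.27 for signals as low as these. The normexp background reduced it to 0.35, under 2-fold, so the call for Il27ra depends on the background step.

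Il6ra encodes the chain that binds IL-6. Its probe read 7641 without IL-4 and 7252 with it, and the log2 difference of -0.18 turned to 0.04 with median scaling and to 0.15 with scaling on spike-in controls. Its direction is therefore not settled. Lifr encodes the LIF receptor chain and had 3 probes, all detected on both arrays. The brightest went from 377 to 324, a log2 difference of -0.32 with a spot SD of 0.074. The next went from 118 to 113, a difference of -0.16 with a spot SD of 0.15, and the dimmest from 48.7 to 53.6, a difference of 0.04 with a spot SD of 0.27. No Lifr probe reached 2-fold, and with spike-in scaling the brightest had a difference of -0.00036.

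Il11ra1 encodes the α chain for IL-11. Its probe went from 12895 to 23932, a log2 difference of 0.79 with a spot SD of 0.046, or 1.73-fold, and 3.06% of the genes measured on both arrays had a larger difference. It passed 2-fold with median scaling, at 1.01, and with spike-in scaling, at 1.11. Mice also carry Il11ra2, a close copy of this gene that no probe was assigned to here, and transcripts of the copy could bind the same probe, so the value cannot be divided between them. Csf3r encodes the G-CSF receptor, the receptor of the neutrophil lineage that is also present on monocytes. Its probe went from 37378 to 46118, a log2 difference of 0.20 with a spot SD of 0.045 from 5 probes of similar signal. The difference was positive in all settings and at most 0.52.

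**Figure D2:**
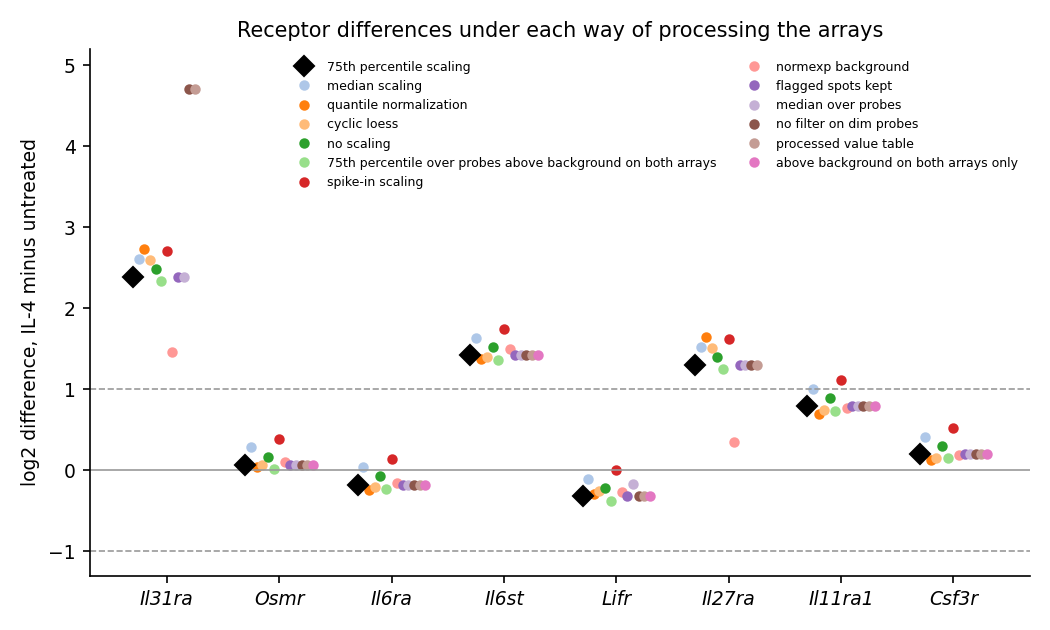
Log2 difference in signal, IL-4-treated minus untreated BMDMs, of the 8 receptor genes under the main setting (black diamond, scaling on the 75th percentile) and 12 alternatives (coloured points, 11 for Il31ra and Il27ra). Dashed lines mark 2-fold, Il31ra and Il6st lie above it throughout, Il27ra falls under it with the normexp background, and Il6ra changes sign.

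Genes next to the receptors were read as well, 3 protein-coding genes on each side in the order of the RefSeq table. Il6st and Il31ra follow each other on chromosome 13. On the side of Il31ra, Ddx4, a germ cell RNA helicase, had intensities of 6.47 and 54.0. It was well above background after IL-4 only, and 1.72-fold higher against the floor (log2 difference 0.79, spot SD 0.49). Slc38a9, a lysosomal amino acid sensor, had a log2 difference of 0.38, with its 3 probes between 0.05 and 0.60, and Plpp1 one of -0.11. On the side of Il6st, Ankrd55 was detected on neither array, and Map3k1, a MAP kinase kinase kinase, had a difference of -0.30. Ddx4 passed 2-fold with quantile normalization, at 1.21, and with spike-in scaling, at 1.11, and reached 2.96 without the bound, both from the scanner intensity and in the processed table. The signs of Plpp1 and Map3k1 turned with spike-in scaling.

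Osmr and Lifr also follow each other, on chromosome 15. Fyb, an adaptor of immune cells next to Rictor, went from 2629 to 1418, a log2 difference of -0.99, just short of 2-fold, and passed it with quantile normalization at -1.03. Rictor, a subunit of mTORC2, had a difference of 0.03 and Gdnf one of -0.43. Over all 36 flanking genes of the 8 receptors, 27 had a value, 1 was higher and 1 lower by 2-fold or more. The higher one was Zc3h12a, an RNase known to degrade Il6 mRNA, which lies near Csf3r and went from 92.8 to 203, a log2 difference of 1.03, or 0.53 with the normexp background. The lower one was Arid3c near Il11ra1, which went from 54.3 to 5.68, the latter not well above background, a bound of -1.06 on the log2 scale that 6 of the alternatives put under 2-fold, at -0.68 with quantile normalization.

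**Figure D3:**
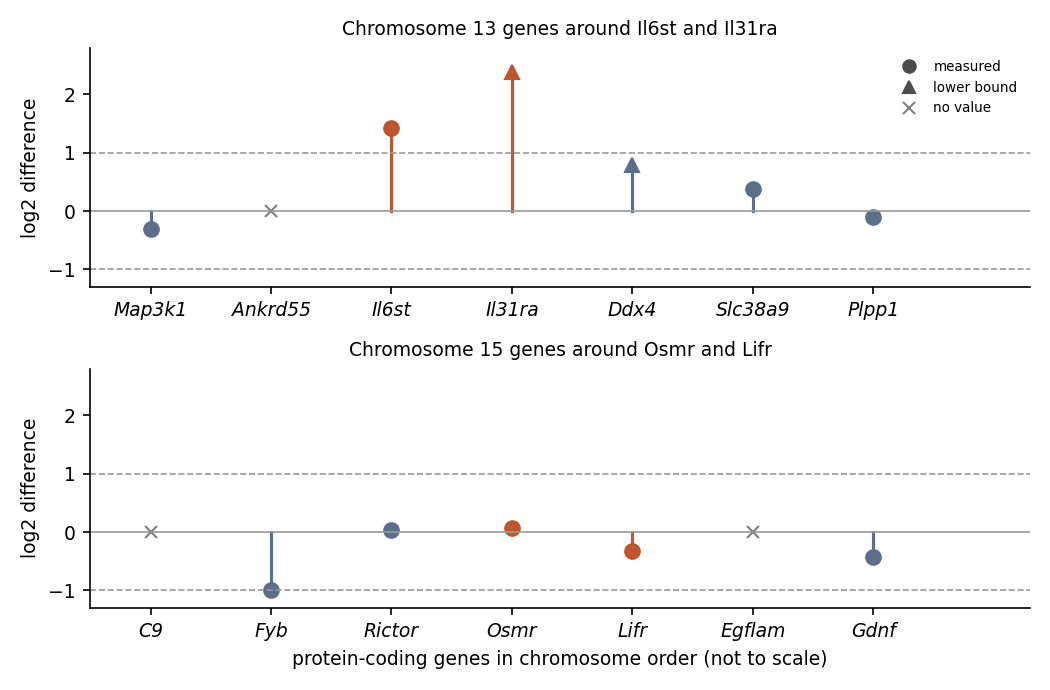
Log2 difference in signal, IL-4-treated minus untreated BMDMs, of the protein-coding genes around Il6st and Il31ra on chromosome 13 and around Osmr and Lifr on chromosome 15, in chromosome order and not to scale. Receptor genes are orange, triangles are lower bounds, crosses are genes not well above background on either array and dashed lines mark 2-fold. Il6st at 1.42 and Il31ra at 2.39, set against the floor, stand above their neighbours, and Fyb at -0.99 is the lowest gene shown.

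Il6 stood apart among the ligands of the family, most of which had differences below 0. Of 13 ligand genes, 10 were detected on both arrays, 3 on neither, 1 was at least 2-fold higher and 0 were at least 2-fold lower, with a median log2 difference of -0.28 against -0.01 over all genes measured on both arrays. The higher one was Il6, which went from 65.6 to 150, or 2.14-fold, with a spot SD of 0.16, and it fell short of 2-fold with the normexp background, at 0.45 on the log2 scale. Osm, the gene of oncostatin M, went from 69.6 to 47.4, a difference of -0.65, and Il11 from 1012 to 632, a difference of -0.78. Il27, the p28 subunit of IL-27, had a difference of 0.35, and Ebi3, the other subunit, one of -0.28 that turned to 0.04 with spike-in scaling. Csf3 was detected on neither array.

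Of 6 other receptor genes related to gp130 by build or use, 5 had a probe, 3 were detected on at least 1 array, and 0 were at least 2-fold higher or lower. Lepr, the leptin receptor, had 3 detected probes with log2 differences between -0.70 and -0.15, the brightest at -0.15, or 0.17 with spike-in scaling. Il12rb1, a chain shared by the receptors for IL-12 and IL-23, had a difference of -0.39. Cntfr, the α chain for CNTF, was well above background in untreated BMDMs only, at an intensity of 49.4. It was 1.90-fold lower against the floor, or -2.85 on the log2 scale without the bound. Il12rb2 and Il23r were detected on neither array.

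Among 12 genes of JAK kinases, STATs and adaptors, 10 were measured on both arrays, and 1 was at least 2-fold higher and 0 lower, with a median of -0.03. Jak2, a kinase that gp130 receptors use, went from 1518 to 3694, a log2 difference of 1.18 or 2.27-fold. Jak1 was at 0.07, Tyk2 at -0.25 and Stat3, the main STAT downstream of gp130, at -0.04 by its brighter probe and -0.62 by the other. The signs for Jak1, Tyk2 and Stat3 changed with the scaling. Stat5a had a difference of 0.57.

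Of 8 feedback inhibitors, 7 were measured on both arrays, and 3 were at least 2-fold higher and 0 lower, with a median of 0.49. Cish was 25.4-fold and Socs1 20.7-fold higher, and Socs2 went from 506 to 1129, a log2 difference of 1.06 that was 0.97 with the normexp background. Socs3, the inhibitor that binds gp130 itself, went from 1568 to 2316, a log2 difference of 0.46, under 2-fold. Ptpn2, a phosphatase for JAK and STAT proteins, had 3 probes that lay between 0.25 and 1.12.

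Of 13 genes known as STAT3 targets, all were measured on both arrays, with a median of 0.31, and 0 were at least 2-fold higher and 1 was at least 2-fold lower. Pim1, a survival kinase, had a log2 difference of 0.94, Saa3, an acute phase gene, one of 0.91 and Myc one of 0.83. Fos, the lower gene, went from 946 to 493, a difference of -1.04. The count depends on the scaling, since median and spike-in scaling each put Pim1, Saa3 and Myc past 2-fold and no gene at least 2-fold lower, with Fos at -0.83 and -0.72. Many of these genes also answer to other STAT proteins, so the list is not specific to gp130.

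For comparison, of 20 other class I cytokine receptor genes, 15 were detected on at least 1 array, and 3 were at least 2-fold higher and 0 lower, with a median of 0.05 over the 14 measured on both. Il13ra2, a decoy receptor for IL-13, was well above background after IL-4 only, at 438, and was 14.0-fold higher against the floor. Csf2rb, the shared chain of the receptors for GM-CSF, IL-3 and IL-5, went from 17176 to 39150, a log2 difference of 1.09 that was 0.9998 with quantile normalization. Il15ra had a difference of 1.34 at its brighter probe and of -1.03 at the other, so its direction is not settled. Whether the gp130 family differed from these receptors was not tested.

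**Figure D4:**
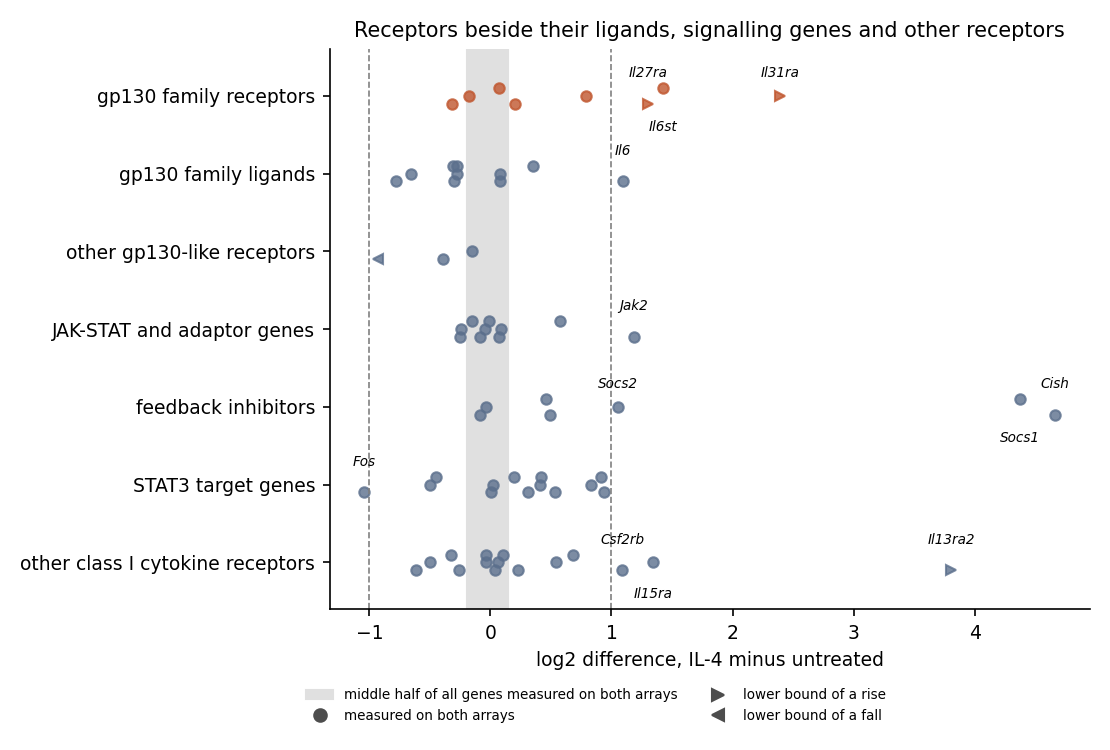
Log2 difference in signal, IL-4-treated minus untreated BMDMs, of each gene with a value among the gp130 family receptors (orange), their ligands, related receptors, signalling genes, STAT3 targets and other class I receptors (blue). Triangles are lower bounds, or for Il27ra a plain difference. The grey band runs from the lower to the upper quartile of all genes measured on both arrays, dashed lines mark 2-fold and genes past 2-fold are named. Il31ra and Il13ra2 lie farthest to the right among the receptors, and Cish and Socs1 among all genes shown.

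Among genes well above background after IL-4 only, as Il31ra was, the 5 with the nearest value were 4930515G01Rik, Ceacam19, Sowaha, Rgs4 and Zfp109. They lay between 2.33 and 2.45 on the log2 scale. Their likeness is over 2 arrays, and for Il31ra, Ceacam19, Sowaha and Zfp109 the untreated side is the same floor, so it reflects a similar signal after IL-4. For 4930515G01Rik and Rgs4 the value is a plain difference over their own untreated signal.

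The label of the cells was checked against marker genes. All 7 macrophage markers on the array were detected on both arrays. Their intensities summed to 296935 without and 273913 with IL-4, a sum dominated by Csf1r and Lyz2. This sum and those below use intensities that were not scaled across arrays, unlike the differences. They add probes whose levels are not comparable, so they do not measure amounts of a cell type. Their median log2 difference was -0.71. Csf1r and Adgre1 had log2 differences of 0.09 and 0.17, Itgam and Lyz2 had -0.71 and -0.70, and Mertk, Fcgr1 and Cd14 were at least 2-fold lower, although Mertk was at -0.82 and Fcgr1 at -0.91 under spike-in scaling. The M2 markers Arg1, Retnla, Chil3 and Mrc1 were all at least 2-fold higher. The 7 neutrophil markers with a probe, which matter for Csf3r, were also detected on both arrays, with log2 differences between -0.93 and 0.30 and a summed intensity of 38433 and 37012. The 6 fibroblast markers were detected on both arrays too, with differences between -0.34 and 0.52 and a summed intensity of 324152 and 317279. Col1a2 alone read 233342 and 234332, beside 146026 and 166510 for Csf1r, although levels of different probes are not comparable. The markers thus do not show RNA of macrophages alone. The study's methods report BMDM cultures of high purity by flow cytometry for macrophage surface markers, without naming the array cultures. Which cells carried the signal of any receptor, Il6st, Il11ra1, Osmr and Lifr included, was not tested. Among 3 of 4 endothelial markers measured on both arrays the differences lay between 0.02 and 0.61, and the sums were 2741 and 3170.

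For lymphocytes, 2 of 5 T cell markers, Cd3e and Cd4, and 1 of 4 B cell markers, Cd79b, were well above background, while Cd3d, Cd3g, Cd8a, Cd79a and Ms4a1 were not on either array. The sums over the lists were 895 and 866 for T cells and 527 and 423 for B cells. Of 6 mast cell and basophil markers, 3 were detected on at least 1 array and Fcer1a, Ms4a2 and Mcpt4 on neither. Cpa3 was well above background in untreated BMDMs only and 3.51-fold lower against the floor, and the sums of this list were 521 and 347. The part of other cell types in the signals of the receptors was not tested.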

How the data were processed

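RNA of 1 untreated and 1 IL-4-treated BMDM culture was labelled with Cy3 and hybridised to Agilent mouse arrays, 1 per condition. The authors deposited Feature Extraction 10.10.1.1 output, whose intensity per spot has the background subtracted and no scaling across arrays, and also a table of processed log2 values whose scaling and centring are not stated. The other deposited columns used were flags and the median pixel intensity. The array annotation names mm9, and probes were named through RefSeq accessions from a GRCm38.p6 table. This matched 27229 of 39424 probes to 20656 symbols. Probes left without a symbol were grouped by their identifier on the array, and each group counts as a gene in totals over all genes.

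Spots flagged as outliers were left out, log2 intensities were averaged per probe, and the 75th percentile of each array (9.84 untreated, 9.94 IL-4) was subtracted. A gene was read from its brightest probe. A probe well above background on 1 array gives a lower bound where the other array was set to the floor, the lowest signal that passed there. Where its own signal there was higher, as for Il27ra, that signal was used and the value is a plain difference. Since spots above the floor could still fail to pass, a bound holds for this floor and background step only. A probe below on both arrays gives no value. Genes at least 2-fold apart were counted. With 1 array per condition no test is possible, and precision is limited by this number of arrays. On the untreated array 59.8% of spots for genes were well above background and on the IL-4 array 57.4%.

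The spot SD of a gene is a median over probes that were printed in 10 spots. Their mean log2 signal over the 2 arrays lay within 1 log2 unit of that of the gene. The members and gene lists were chosen with earlier results of these data known. Genes named are all members, list genes past 2-fold with examples by role, the 5 genes nearest to Il31ra, flanking genes and cell type markers. The calling step was tested on simulated data. Alternatives were other scalings, normexp with an offset of 50, flagged spots, probe rules, filters on dim probes and the processed table. Protein sequences were not analysed here, and some genes of the lists are not reported here by name. Calculations used limma 3.58.1 in R 4.3.3, and pandas 2.3.3 with numpy 2.4.6 in Python 3.11.15.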

Additional observations from a re-analysis of the deposited data

How the results depend on the processing

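No paired analysis was possible because a single array stands for each condition. A difference counts as moved here when it changed by more than the SD between spots. The bound for Il31ra, 2.39 on the log2 scale, stayed within that SD except with normexp, at 1.46, and without a bound, at 4.71 from the scanner intensity and 4.71 in the processed table. It has no value when a probe must be well above background on both arrays, and neither does Il27ra. The median over the other 7 members, 0.20, was 0.42 with median scaling, 0.13 with quantile normalization, 0.15 with cyclic loess, 0.30 with the arrays unscaled, 0.15 when the 75th percentile was taken over probes detected on both arrays, 0.52 when scaled on spike-in controls and 0.14 with members measured on both arrays only. The 3 members at least 2-fold higher were 4 with median and with spike-in scaling, 2 with normexp and 1 with members measured on both arrays only, where Il31ra and Il27ra are left out by construction. In the other cases the cause was not tested. The median of all genes, -0.01, became 0.20 under median scaling and 0.31 under spike-in scaling, and Il11ra1 at 1.01 and 1.11 shifted by the same amount. No member was at least 2-fold lower in any setting. Signals near the floor, as for Il31ra and Il27ra in untreated BMDMs, limit what these arrays can measure.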
